A study of Mus musculus with 7 samples.

Results

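Mitotic regulators, kinetochore and condensin subunits and the kinesin motors were examined in HopX-positive cells sorted from mouse brain. They were chosen by gene name, as all kinesin (Kif, Kifc), centromere protein (Cenp), Aurora kinase, Bub and condensin (Ncap) genes, with the A and B cyclins, Nek2, Smc2, Smc4, Spc24, Spc25 and 13 further mitotic genes. Of 24841 gene symbols deposited, 100 matched, and 93 of these reached at least 1 TPM in at least 2 of the 7 libraries. TPM, the deposited unit, is a gene's share of the library's transcripts after correction for their length, so that levels can be set side by side between genes. The 7 that missed this minimum were Aurkc, Kif12, Kif26a, Kif28, Kif2b, Kif4-ps and Kifc5c-ps. Just outside lay Aurkc, with a highest value of 0.7399 TPM, Kif28 (0.662 TPM) and Kif4-ps (0.582 TPM). Just inside lay Kifc5b, at 1.34 and 1.56 TPM (E15), 0.166 and 1.11 TPM (P3) and 0, 0.0882 and 0.196 TPM (adult), and Kif27, at 0.289 and 0.306 TPM (E15), 1.32 and 1.29 TPM (P3) and 0, 0 and 0.08301 TPM (adult). By role, 64 of the 93 were genes of mitosis, 13 of them mitotic kinesins. A further 17 were kinesins known mainly as cargo transporters, 8 were other kinesins and 4 shared only the name pattern.

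All libraries came from C57BL/6 mice and from cells sorted by fluorescence for HopX, a homeodomain protein found in radial glia, quiescent neural stem cells and astrocytes. There were 2 libraries of embryonic day 15 (E15), 2 of postnatal day 3 (P3, numbered 1 and 3) and 3 of adults. The brain region, the adult age, any reporter allele and the way HopX was detected are not stated in the labels, and a difference in region cannot be told apart from a difference in stage. Whether replicates came from separate animals is not stated, and the p-values cover no more than sample-to-sample spread, part or all of which may be technical. TPM keeps no record of read number, so depth is unknown and counting error could not be bounded. Rows listed at 0 made up 19.0% to 21.2% of the E15 and P3 libraries and 26.5% to 31.4% of the adult libraries.

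When a cell enters mitosis, cyclin B and Cdk1 switch on the machinery that condenses chromosomes, builds the spindle and attaches chromosomes to it through kinetochores. The spindle checkpoint then holds the anaphase promoting complex until every kinetochore is attached. Transcripts of these genes rise in G2 and M phase of cycling cells, and many of their promoters hold a pair of short elements. CCAAT boxes bind the activator NF-Y, and an element near the start with letters such as TTTGAA or TTCGAA takes part in their repression in resting cells. Kinesins are motors that move along microtubules. Some act mainly on the spindle and at cytokinesis, and others carry vesicles, organelles and receptors, above all along axons, dendrites and cilia.

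The labels call the cells neural progenitor cells. Of the 6 radial glial markers, 4 fell between E15 and the adult (Fabp7, Nes, Pax6 and Vim) and 2 rose (Slc1a3 and Sox2). Fabp7 was at 4829 and 4019.9 TPM (E15), 21682 and 13691 TPM (P3) and 1829, 2309.8 and 1874 TPM (adult). Nes, the classical progenitor filament, was at no more than 1.69 TPM in the adult, and Sox2 was at 27.6 and 26.7 TPM (E15), 51.9 and 41.6 TPM (P3) and 67.1, 58.7 and 82.9 TPM (adult). The summed level of 6 astrocyte markers was 732 and 575 TPM (E15), 4223 and 2799 TPM (P3) and 12218, 11795 and 10603 TPM (adult). All 6 of them were called higher in the adult than at E15, where 24.7% of all rows were called lower and 15.4% higher. Adult libraries were thus high in astrocyte transcripts and held little Nes RNA, while Sox2 was higher there than at E15. In bulk samples, fewer cells of a type and less RNA per cell cannot be told apart, and this holds for every level given here.

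The promoters of 5 genes are shown because their genes stand for the groups compared, Cdk1 for the mitotic regulators, Kif22 and Kif23 for the mitotic kinesins of highest mean level, and Kif1a and Kif1b for the transport kinesins of highest mean level. The sequences are from RefSeq on GRCm38.p6, not the mm9 build that the submitters name, and run 5′ to 3′ on the gene's strand from 250 bases before to 30 bases after the start. Capitals mark the letters TTTGAA, the letters TTCGAA or the box CCAAT on either strand, and no capital runs overlap. On the other strand TTTGAA reads as TTCAAA, and the box reads as ATTGG. The windows are chr10:69352883-69353162 for Cdk1, chr7:127042391-127042670 for Kif22, chr9:61946770-61947049 for Kif23, chr1:93101845-93102124 for Kif1a and chr4:149307704-149307983 for Kif1b, all on the minus strand.
Cdk1: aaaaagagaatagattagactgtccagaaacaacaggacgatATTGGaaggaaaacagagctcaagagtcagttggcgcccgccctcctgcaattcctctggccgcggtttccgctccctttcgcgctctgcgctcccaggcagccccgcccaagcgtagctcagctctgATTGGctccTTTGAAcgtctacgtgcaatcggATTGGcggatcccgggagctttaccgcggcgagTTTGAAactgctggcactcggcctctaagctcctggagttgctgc
Kif22: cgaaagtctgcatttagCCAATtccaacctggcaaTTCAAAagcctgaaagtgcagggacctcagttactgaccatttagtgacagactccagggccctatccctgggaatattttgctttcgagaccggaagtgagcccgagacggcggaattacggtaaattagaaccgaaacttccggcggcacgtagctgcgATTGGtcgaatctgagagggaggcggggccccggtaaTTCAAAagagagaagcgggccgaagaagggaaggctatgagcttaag
Kif23: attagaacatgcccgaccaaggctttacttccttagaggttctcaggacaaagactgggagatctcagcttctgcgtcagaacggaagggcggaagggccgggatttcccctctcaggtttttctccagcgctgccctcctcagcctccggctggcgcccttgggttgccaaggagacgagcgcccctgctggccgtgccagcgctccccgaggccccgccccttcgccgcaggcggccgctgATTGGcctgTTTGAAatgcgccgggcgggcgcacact
Kif1a: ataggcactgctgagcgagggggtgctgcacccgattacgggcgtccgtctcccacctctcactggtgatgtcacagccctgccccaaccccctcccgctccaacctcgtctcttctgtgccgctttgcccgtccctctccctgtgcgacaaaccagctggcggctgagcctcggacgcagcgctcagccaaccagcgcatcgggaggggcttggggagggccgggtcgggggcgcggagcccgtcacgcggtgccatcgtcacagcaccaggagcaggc
Kif1b: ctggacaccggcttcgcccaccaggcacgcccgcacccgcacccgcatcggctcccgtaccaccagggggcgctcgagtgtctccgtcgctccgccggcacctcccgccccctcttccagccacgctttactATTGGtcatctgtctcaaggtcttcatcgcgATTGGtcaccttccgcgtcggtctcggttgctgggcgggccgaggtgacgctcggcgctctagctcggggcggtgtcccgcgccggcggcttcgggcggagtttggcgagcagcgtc
In Cdk1 a TTTGAA lay at position -15 from the start, in Kif22 a TTCAAA at -17 and in Kif23 a TTTGAA at 3, each with a CCAAT box (read as ATTGG) upstream of it. Kif1a held none of these letters, and Kif1b held 2 CCAAT boxes (read as ATTGG) and no TTTGAA or TTCGAA.

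Counted over windows of 300 bases (250 before to 50 after the start, the first window listed for each symbol), the TTTGAA or TTCGAA letters were found on either strand in 37 of the 58 mitotic genes with a window (63.8%), against 19.4% of all 27025 windows. Among mitotic kinesins 11 of 12 held them, among transport kinesins 0 of 11 and among other kinesins 3 of 7. Within 50 bases of the start they were found in 31 of the 58 mitotic genes (53.4%) and in 5.29% of all windows. A CCAAT box was found in 42 of the 58 (72.4%), in 8 of the 12 mitotic and 3 of the 11 transport kinesins, and in 37.9% of all windows. Base composition differed too, with a median GC of 59.8% for the mitotic genes, 69.3% for the transport kinesins and 52.7% for all windows. A match is a description of letters, and its part in the levels below was not tested.

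Mitotic genes were at lower levels in the adult than at both earlier stages. Between E15 and the adult 59 of the 64 fell and none rose (limma, Benjamini-Hochberg adjusted p under 0.05), where 24.7% of all 15931 rows tested were called lower and 15.4% higher. Their median log2(TPM + 1) difference was -2.88, against -0.30 for all rows, and the 95% interval lay below -1 for 49 of the 64. The summed TPM of the 64 genes was 6898 and 5348 (E15), 3513 and 5082 (P3) and 772, 1039 and 912 (adult), so the adult libraries lay below all 4 earlier ones. Between P3 and the adult 53 fell and none rose, where 13.8% of all rows were called lower, and the median was -2.41 against -0.13. That count was 22 without P3 replicate 3. With all 7 libraries the 64 differences from P3 to the adult were all below 0, as were 8962 of all 15931 rows. Every adult library lay below every E15 library for 63 of the 64 genes and below every P3 library for 60, against 38.8% and 29.2% of all rows. The exceptions were Ccna1 for E15, and Cenpc1, Cenpo, Ncapd3 and Kifc5b for P3.

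**Figure D1:**
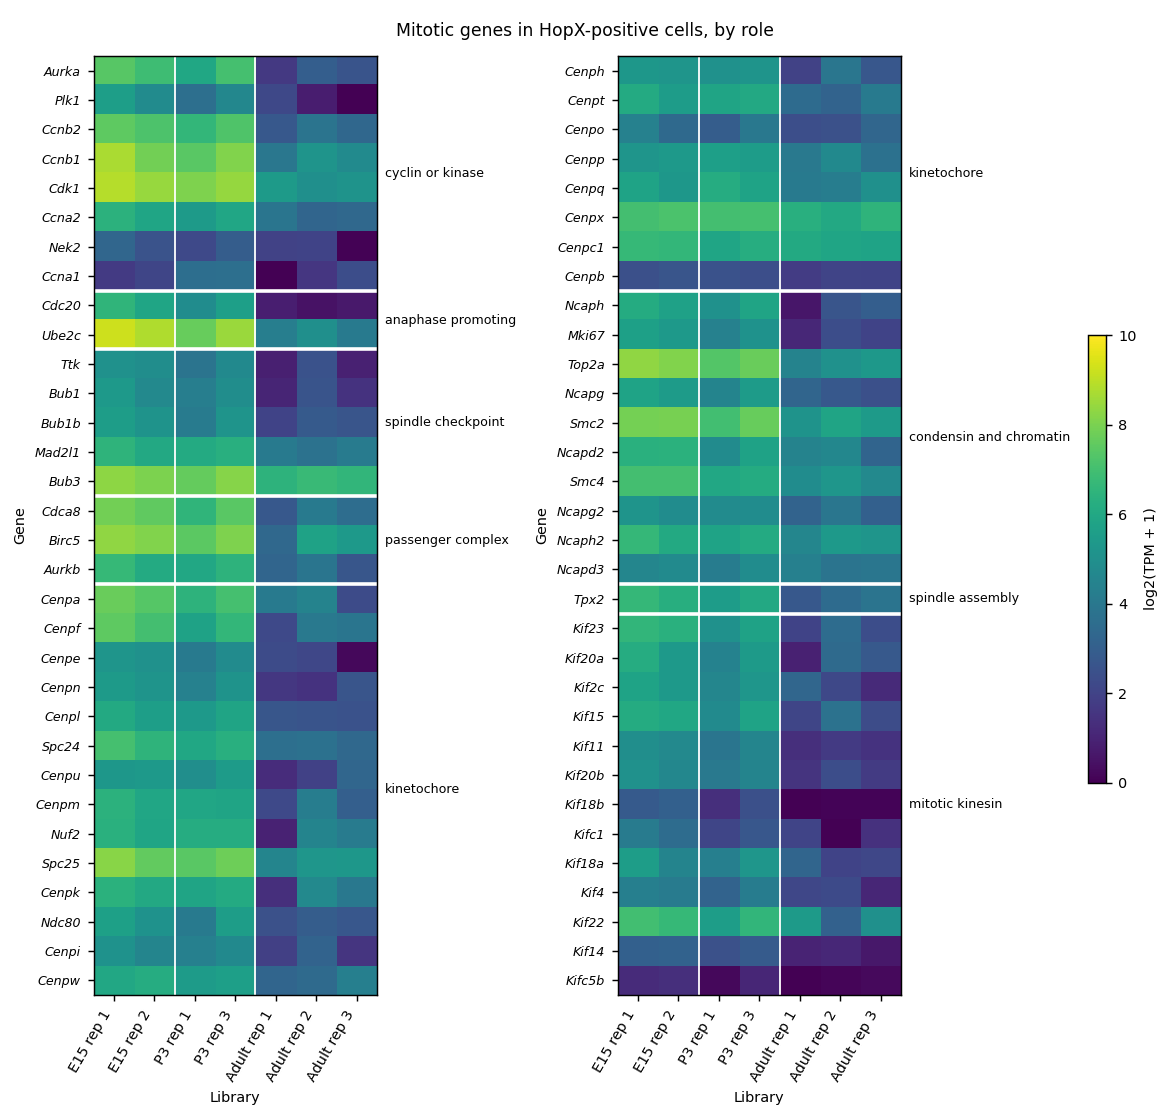
Level of the 64 mitotic genes in each of the 7 libraries as log2(TPM + 1), with genes grouped by role (white horizontal lines) and ordered within a role by the difference between adult and E15, and libraries grouped by stage (white vertical lines). The 3 adult columns are darker than the E15 columns for 63 of the 64 genes, the exception being Ccna1, and the first P3 column is darker than the second for 60 of them.

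The scaling of the libraries moves such counts. With median-of-ratios scaling the median of all rows from E15 to the adult moved from -0.30 to -0.05, and the share of called rows that were higher moved from 38.5% to 53.0%. From P3 to the adult that share moved from 37.9% to 48.2%, and to 48.1% with quantile normalization. Relative to the median of all rows, the median mitotic difference from E15 to the adult was -2.58 as reported and -2.54 with median-of-ratios scaling, under which 52 of the 64 fell and none rose. The 7 genes that lost their call under it were Cenpc1, Cenpk, Cenpp, Cenpq, Cenpx, Kifc5b and Nuf2, with limma, Benjamini-Hochberg adjusted p between 0.0515 and 0.140.

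The cyclins, their kinases and the activators of anaphase had the lowest median adult shares of the E15 level. Cdk1, the kinase that drives entry, was at 466 and 346 TPM (E15), 269 and 339 TPM (P3) and 43.2, 30.2 and 33.8 TPM (adult). All 3 adult values lay below all earlier values, and Cdk1 fell between E15 and the adult (log2 difference -3.47, SE 0.22, limma, Benjamini-Hochberg adjusted p = 1.82e-05). Its partner Ccnb1, cyclin B1, was at 427 and 231 TPM (E15), 175 and 273 TPM (P3) and 14.5, 35.02 and 26.6 TPM (adult), and Ccnb2 was at 185 and 146 TPM (E15), 97.4 and 153 TPM (P3) and 5.83, 13.6 and 9.002 TPM (adult). Both fell (log2 differences -3.66 and -4.05, SE 0.40 and 0.34, limma, Benjamini-Hochberg adjusted p = 0.000259 and 7.93e-05), with no overlap between the adult and the earlier stages. Aurka, the kinase of spindle poles, was at 169 and 117 TPM (E15), 61.1 and 130.01 TPM (P3) and 2.12, 7.02 and 4.99 TPM (adult), and it had the largest difference of its role (log2 difference -4.74, SE 0.46, limma, Benjamini-Hochberg adjusted p = 0.000143). Plk1, a kinase with tasks from centrosome maturation to cytokinesis, was at 47.1 and 27.2 TPM (E15), 11.7 and 23.5 TPM (P3) and 3.51, 0.753 and 0 TPM (adult). It was listed at 0 in Adult replicate 3, and it fell (log2 difference -4.21, SE 0.63, limma, Benjamini-Hochberg adjusted p = 0.00124).

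Cdc20, the activator of the anaphase promoting complex, was at 92.4 and 58.6 TPM (E15), 28.4 and 48.7 TPM (P3) and 0.806, 0.402 and 0.604 TPM (adult). No adult library reached 1 TPM, the adult mean was 0.80% of the E15 mean, and the difference was the largest of the 64 genes (log2 difference -5.55, SE 0.35, limma, Benjamini-Hochberg adjusted p = 1.89e-05). Ube2c, the ubiquitin-conjugating enzyme of the same complex, was at 608 and 451 TPM (E15), 202 and 365 TPM (P3) and 18.3, 30.5 and 16.6 TPM (adult). It was the most abundant of the 64 in both E15 libraries, and the adult mean was 4.12% of the E15 mean (log2 difference -4.57, SE 0.33, limma, Benjamini-Hochberg adjusted p = 3.68e-05). Ccna2, the cyclin of S and G2 phase, kept 14.9% of its E15 mean (log2 difference -2.64, SE 0.29, limma, Benjamini-Hochberg adjusted p = 0.0002695).

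Ccna1, an A cyclin known mainly from the male germ line, had a different order. It was at 2.27 and 3.23 TPM (E15), 11.4 and 11.5 TPM (P3) and 0, 2.01 and 4.12 TPM (adult), highest in the 2 P3 libraries, and listed at 0 in Adult replicate 1. It did not pass between E15 and P3 (log2 difference 1.74, SE 0.69, limma, Benjamini-Hochberg adjusted p = 0.174) and fell from P3 to the adult (log2 difference -2.32, SE 0.63, limma, Benjamini-Hochberg adjusted p = 0.0317). The call was lost without either P3 library or either E15 library, with an adjusted p between 0.0521 and 0.169 (limma, Benjamini-Hochberg). Nek2, a kinase that separates centrosomes, was at 8.91 and 4.94 TPM (E15), 3.65 and 6.701 TPM (P3) and 2.93, 3.01 and 0.0325 TPM (adult) and did not pass in any comparison. It is listed on 2 rows with the same values, so its level is uncertain.

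Spindle checkpoint genes fell as well, 5 of 5 between E15 and the adult, where 24.7% of all rows were called lower. Ttk, the kinase at the head of the checkpoint (Mps1), was at 32.3 and 29.3 TPM (E15), 13.4 and 25.5 TPM (P3) and 0.843, 4.702 and 0.889 TPM (adult) and had the largest difference (log2 difference -3.55, SE 0.54, limma, Benjamini-Hochberg adjusted p = 0.001304). The kinase gene Bub1 was at 41.1 and 25.02 TPM (E15), 18.3 and 28.7 TPM (P3) and 1.05, 5.09 and 1.76 TPM (adult) (log2 difference -3.34, SE 0.49, limma, Benjamini-Hochberg adjusted p = 0.00116). Bub1b, which encodes BubR1, kept 11.8% of its E15 mean, and Mad2l1, which encodes Mad2, kept 19.6% (log2 differences -2.86 and -2.27, SE 0.39 and 0.23, limma, Benjamini-Hochberg adjusted p = 0.000822 and 0.0001897). Bub3, a subunit with interphase partners, was the most abundant of the 5, at 311 and 262 TPM (E15), 199 and 287 TPM (P3) and 88.3, 109 and 95.1 TPM (adult). Its adult mean was 34.0% of the E15 mean, the highest share among the checkpoint genes, and its groups did not overlap between the adult and the earlier stages.

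The chromosomal passenger complex corrects wrong attachments and then moves to the spindle midzone. Its kinase Aurkb was at 104 and 68.3 TPM (E15), 61.99 and 86.9 TPM (P3) and 8.66, 13.8 and 5.31 TPM (adult). Birc5, which encodes survivin, was at 320.3 and 274 TPM (E15), 177 and 266 TPM (P3) and 9.35, 53.99 and 41.7 TPM (adult), and Cdca8, which encodes borealin, was at 231 and 185 TPM (E15), 93.4 and 172 TPM (P3) and 5.69, 15.96 and 10.9 TPM (adult). All 3 genes fell between E15 and the adult, where 24.7% of all rows were called lower. Their log2(TPM + 1) differences were -3.14, -3.36 and -4.23 (limma, Benjamini-Hochberg adjusted p = 0.000424, 0.003397 and 0.0001399). The 3 adult libraries differed among themselves, Birc5 and Cdca8 being lowest in replicate 1 and Aurkb in replicate 3. Birc5 was not called from P3 to the adult once P3 replicate 3 was left out (limma, Benjamini-Hochberg adjusted p = 0.114).

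Of the 22 centromere and kinetochore genes, 20 fell between E15 and the adult, where 24.7% of all rows were called lower. The rest gave no call. Outer kinetochore genes were among those with low adult levels. Cenpf, a large kinetochore and nuclear matrix protein, was at 185 and 129 TPM (E15), 53.6 and 97.5 TPM (P3) and 3.66, 15.4 and 13.7 TPM (adult), and Cenpe, itself a kinesin that brings chromosomes to the spindle equator, was at 36.5 and 31.97 TPM (E15), 16.6 and 27.3 TPM (P3) and 3.83, 3.34 and 0.167 TPM (adult) (log2 differences -3.91 and -3.60, SE 0.53 and 0.60, limma, Benjamini-Hochberg adjusted p = 0.000814 and 0.00211). Cenpa, the histone H3 variant that marks centromeres, was at 208 and 165 TPM (E15), 87.1 and 132 TPM (P3) and 15.8, 21.5 and 3.89 TPM (adult), with 1 adult library well below the other two (log2 difference -3.93, SE 0.57, limma, Benjamini-Hochberg adjusted p = 0.00109). Cenpn, which reads the Cenpa nucleosome, kept 7.86% of its E15 mean (log2 difference -3.39, SE 0.42, limma, Benjamini-Hochberg adjusted p = 0.000475).

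The 4 subunits of the Ndc80 complex, the main microtubule clamp of the kinetochore, all fell. Spc24 and Spc25 remained above 1 TPM in every adult library, at 11.4, 12.2 and 9.28 TPM and at 22.4, 37.1 and 38.1 TPM, and they kept 9.83% and 13.4% of their E15 means (log2 differences -3.22 and -2.87, SE 0.25 and 0.29, limma, Benjamini-Hochberg adjusted p = 5.25e-05 and 0.000175). Ndc80 kept 13.7% (log2 difference -2.66, SE 0.43, limma, Benjamini-Hochberg adjusted p = 0.00194). Nuf2 was at 80.6 and 58.4 TPM (E15), 71.2 and 71.5 TPM (P3) and 0.961, 22.01 and 16.9 TPM (adult). Its value in Adult replicate 1 was far below the other two, and its call was lost without either E15 library or either P3 library, with an adjusted p between 0.0577 and 0.151 (limma, Benjamini-Hochberg, 0.0333 as reported).

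Some constitutive centromere genes kept a larger share of the E15 level. Cenpc1, the scaffold that joins the centromere to the outer kinetochore, was at 102 and 98.3 TPM (E15), 57.7 and 74.6 TPM (P3) and 66.6, 57.3 and 55.03 TPM (adult). Its adult and P3 values overlapped, and it fell by 0.74 between E15 and the adult on the log2(TPM + 1) scale (SE 0.19, limma, Benjamini-Hochberg adjusted p = 0.0145, or 0.0952 and 0.0793 without E15 replicate 1 and 2). Cenpx, a small histone-fold protein that also acts in DNA repair with the Fanconi anaemia complex, was at 127 and 141 TPM (E15), 127 and 133 TPM (P3) and 78.2, 64.7 and 88.6 TPM (adult) (log2 difference -0.80, SE 0.18, limma, Benjamini-Hochberg adjusted p = 0.00866, 0.0791 without E15 replicate 2). Cenpb, which binds a satellite motif, was low in every library, at 4.47 and 5.15 TPM (E15), 4.78 and 4.29 TPM (P3) and 2.42, 3.12 and 3.02 TPM (adult), and it did not pass, as was true of Cenpo. Cenpp and Cenpq kept 46.5% and 47.7% of their E15 means, and their calls were lost without either E15 library (limma, Benjamini-Hochberg adjusted p between 0.0578 and 0.191), that of Cenpq also without Adult replicate 1 or 2 (0.0645 and 0.0642). With median-of-ratios scaling Cenpc1, Cenpx, Cenpp and Cenpq were not called (0.0806, 0.0854, 0.0622 and 0.140). These genes were singled out after their values were seen. The other centromere genes, Cenph, Cenpi, Cenpk, Cenpm, Cenpt, Cenpu and Cenpw, fell, with adult means between 11.2% and 20.1% of the E15 means. Of these, the call of Cenpk was lost without either E15 library (limma, Benjamini-Hochberg adjusted p = 0.123 and 0.0893).

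Condensins pack chromosomes. Between E15 and the adult 9 of the 10 genes in the condensin and chromatin group fell, where 24.7% of all rows were called lower. Smc2, the subunit common to both condensins, was at 237 and 247 TPM (E15), 126 and 202 TPM (P3) and 34.1, 56.4 and 42.4 TPM (adult) (log2 difference -2.45, SE 0.26, limma, Benjamini-Hochberg adjusted p = 0.000243). Ncaph and Ncapg, of condensin I, kept 6.97% and 12.7% of their E15 means (log2 differences -3.85 and -2.82, SE 0.65 and 0.37, limma, Benjamini-Hochberg adjusted p = 0.00234 and 0.000632). Condensin II is nuclear also in interphase. Its subunit Ncapd3 was at 22.96 and 26.7 TPM (E15), 17.4 and 28.4 TPM (P3) and 19.4, 13.5 and 14.4 TPM (adult), with overlap between P3 and the adult, and kept 63.5% of its E15 mean without passing (log2 difference -0.64, SE 0.29, limma, Benjamini-Hochberg adjusted p = 0.119). Ncaph2 kept 39.6% (log2 difference -1.32, SE 0.29, limma, Benjamini-Hochberg adjusted p = 0.00817, 0.0841 without E15 replicate 1) and Ncapg2 kept 31.2%, while Ncapd2, of condensin I, kept 21.6%. Whether the condensins differ from each other was not tested.

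The proliferation markers Mki67 and Top2a and the spindle factor Tpx2 fell too. Mki67, which coats mitotic chromosomes, was at 49.7 and 41.5 TPM (E15), 20.04 and 33.1 TPM (P3) and 1.17, 4.19 and 2.98 TPM (adult) (log2 difference -3.71, SE 0.41, limma, Benjamini-Hochberg adjusted p = 0.000297). Top2a, the topoisomerase that untangles sister chromatids, was at 326 and 274 TPM (E15), 159 and 211 TPM (P3) and 21.4, 31.9 and 38.8 TPM (adult) (log2 difference -3.28, SE 0.26, limma, Benjamini-Hochberg adjusted p = 6.12e-05). Tpx2, which activates Aurora A and nucleates spindle microtubules, was at 99.5 and 76.1 TPM (E15), 44.5 and 64.5 TPM (P3) and 5.75, 10.4 and 13.6 TPM (adult) (log2 difference -3.08, SE 0.35, limma, Benjamini-Hochberg adjusted p = 0.000324). Every one of these 3 genes was above 1 TPM in each adult library, at 6.10%, 10.3% and 11.3% of its E15 mean.

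By role, the median adult level as a share of the E15 mean was 2.46% for the 2 anaphase promoting genes, 8.26% for cyclins and kinases, 9.84% for mitotic kinesins, 10.8% for the passenger complex, 11.8% for the checkpoint, 17.1% for kinetochore genes and 19.9% for condensins and chromatin. The median was 78.7% over all rows tested with a level above 0 at E15. Roles overlapped widely, and differences between roles were not tested.

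**Figure D2:**
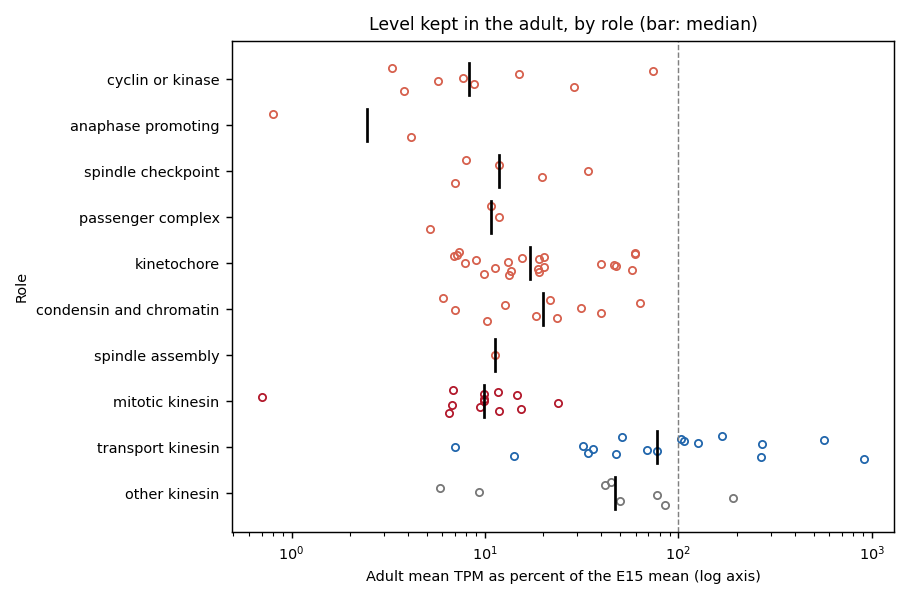
Adult mean TPM (n = 3) as a percent of the E15 mean (n = 2), on a log axis, with 1 point per gene, a black bar at the median of each role and a dashed line at equal levels. Mitotic genes lie between 0.706% (Kif18b) and 74.3% (Ccna1), and transport kinesins lie between 6.97% (Kif21b) and 914% (Kifc3).

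The first step, from E15 to P3, gave no call among the 64 mitotic genes in either direction (limma), where 1.08% of all rows were called lower and 5.56% higher. At an unadjusted p under 0.05 (limma), 7 were lower and 1, Ccna1, was higher, where 1794 of all 15931 rows were lower and 1963 higher. At that cut the share of lower genes was thus near that of all rows. In direction alone, 59 of the 64 differences lay below 0, against 9360 of all 15931 rows. The median difference was -0.54, against -0.15 for all rows. Smc4 came closest, at 128 and 127 TPM (E15), 63.1 and 70.7 TPM (P3) and 28.1, 37.2 and 25.3 TPM (adult) (log2 difference -0.93, SE 0.23, limma, Benjamini-Hochberg adjusted p = 0.0508), and it was called with a pseudocount of 5, with a stricter filter or with quantile normalization (limma, Benjamini-Hochberg adjusted p = 0.0433, 0.0334 and 0.0405), and also without Adult replicate 2 or 3 (0.0365 and 0.0480). The intervals were wide, with a median distance of 1.01 on the log2 scale from the estimate to either bound, and for 9 of the 64 genes they lay within -1 to 1. Both P3 values lay below both E15 values for 32 of the 64 genes, against 37.2% of all rows.

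The 2 steps were then compared within a gene, as the difference from P3 to the adult minus that from E15 to P3. It was called below 0 for 5 mitotic genes and above 0 for none, where 2.17% of all rows were called below 0 and 0.722% above. They were Cdc20 (-3.62), Ccnb2 (-3.20), Cenpl (-2.81), Cdk1 (-2.65) and Mad2l1 (-2.11), with limma, Benjamini-Hochberg adjusted p between 0.0134 and 0.0420. For these genes the later step was thus the larger fall. Cenpl, a constitutive centromere protein, was at 65.6 and 47.1 TPM (E15), 41.2 and 56.1 TPM (P3) and 5.42, 5.07 and 4.78 TPM (adult). The count was 0 without E15 replicate 2, without P3 replicate 1 or without P3 replicate 3, and 1 without E15 replicate 1. With a filter of a mean of at least 5 TPM, 13 genes were called.

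The P3 libraries differed from each other. Replicate 3 lay above replicate 1 for 60 of the 64 mitotic genes, against 54.0% of all rows, with a median ratio of 1.56. Kif18b was at 1.53 and 4.50 TPM in replicates 1 and 3, and Ndc80 at 16.0 and 46.1 TPM. Most markers of immature neurons and intermediate progenitors moved with this. The summed level of 8 immature neuron markers was 229 and 1096 TPM in the same libraries, and that of 6 intermediate progenitor markers was 430.0 and 563 TPM. Among them Stmn2 went the other way, at 21.0 and 11.7 TPM, and Gadd45g was nearly level, at 139.3 and 139.6 TPM. Radial glial markers were split, with Nes, Pax6 and Vim higher in replicate 3 and Fabp7, Slc1a3 and Sox2 lower. Their sum, most of it Fabp7, was 24550 and 15861 TPM, and that of the astrocyte markers was 4223 and 2799 TPM. The part of these cell types in the mitotic levels was not tested. E15 replicate 1 lay above replicate 2 for 52 of the 64 genes, against 46.0% of all rows. E15 replicate 1 also held red blood cell RNA, with 3 markers summing to 2819 TPM against 13.5 TPM in replicate 2, and the part of this in the mitotic levels was not tested. Of the 64 mitotic genes, 48 fell from E15 to the adult without E15 replicate 1 and 51 without replicate 2.

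Across stages, neuron and intermediate progenitor markers fell together with the mitotic genes. Immature neuron markers summed to 1812 and 2090 TPM at E15 and to 99.9, 65.5 and 71.1 TPM in the adult, all 8 being called lower there. Intermediate progenitor markers summed to 793 and 770.4 TPM at E15 and to 203, 157 and 146 TPM in the adult, with 6 of 6 called lower. Microglia markers moved the opposite way, from 2.79 and 2.66 TPM at E15 to 194, 93.6 and 183 TPM in the adult, with 4 of 6 called higher. In this comparison 24.7% of all rows were called lower and 15.4% higher. The part of each marker group in the mitotic levels was not tested. The 6 endothelial markers summed to between 89.8 and 188 TPM, nearly all of it Pecam1, and Cldn5 was listed at 0 in 5 libraries. The 6 markers of oligodendrocyte progenitors summed to 1.91 and 1.12 TPM (E15), 42.1 and 24.05 TPM (P3) and 17.8, 15.8 and 18.7 TPM (adult). Of the 3 tested, Olig1 and Olig2 were called higher than at E15 both at P3 and in the adult, while Pdgfra, which defines these cells, was at no more than 0.531 TPM in any library. Their part in the mitotic levels was not tested.

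Among adult libraries, replicate 1 was the lowest for 35 of the 64 mitotic genes, against 31.3% of all rows, and replicate 2 was the highest for 36. The 6 mature oligodendrocyte markers summed to 526, 5.81 and 359 TPM in adult replicates 1, 2 and 3, so myelin transcripts were high in replicates 1 and 3 and low in replicate 2, where Mog and Cldn11 were listed at 0. Their part in the mitotic levels was not tested. The mitotic count between E15 and the adult was 57 of 64 without Adult replicate 1, 57 without replicate 2 and 59 without replicate 3.

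All 13 mitotic kinesins fell between E15 and the adult, where 24.7% of all rows were called lower. Kif11, the motor that pushes spindle poles apart, was at 29.4 and 24.9 TPM (E15), 13.8 and 22.1 TPM (P3) and 1.52, 2.28 and 1.74 TPM (adult), with adult values near each other and far below the rest (log2 difference -3.31, SE 0.32, limma, Benjamini-Hochberg adjusted p = 0.000157). It is listed on 2 rows with the same values, and its level is uncertain for that reason. Kif15, which backs up Kif11 in keeping the spindle bipolar, was at 70.7 and 61.9 TPM (E15), 26.5 and 54.4 TPM (P3) and 3.26, 12.5 and 3.94 TPM (adult) (log2 difference -3.35, SE 0.51, limma, Benjamini-Hochberg adjusted p = 0.00141). Kifc1, the motor that focuses spindle poles by moving to the minus end, was at 17.1 and 10.7 TPM (E15), 3.201 and 5.56 TPM (P3) and 3.19, 0 and 1.7 TPM (adult) (log2 difference -2.70, SE 0.60, limma, Benjamini-Hochberg adjusted p = 0.00846, 0.0721 without E15 replicate 1). Its close copy Kifc5b, with values given above, reached 1 TPM only in both E15 libraries and in P3 replicate 3, so it met the filter through the stage where it was high (log2 difference -1.17, SE 0.37, limma, Benjamini-Hochberg adjusted p = 0.0361), and its call was lost without any 1 library of E15 or the adult, with an adjusted p between 0.0510 and 0.175 (limma, Benjamini-Hochberg). Reads of the 2 copies may be split between them.

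Kinesins of the chromosome arms and kinetochores followed. Kif22, the chromokinesin whose promoter is shown above, was the most abundant mitotic kinesin, at 125 and 102 TPM (E15), 46.4 and 94.3 TPM (P3) and 42.3, 7.72 and 31.1 TPM (adult). Adult replicate 2 lay far below the other two, and the call was lost without E15 replicate 1 or 2 (log2 difference -2.31, SE 0.62, limma, Benjamini-Hochberg adjusted p = 0.0191, 0.102 and 0.0744 without them). Kif4, the chromokinesin that works with condensin and at the midzone, was at 19.1 and 16.9 TPM (E15), 8.098 and 17.3 TPM (P3) and 3.38, 3.797 and 1.08 TPM (adult) (log2 difference -2.43, SE 0.47, limma, Benjamini-Hochberg adjusted p = 0.00425), and a pseudogene of it, Kif4-ps, was under the minimum. Kif2c, which takes microtubule ends apart at kinetochores, was at 55.4 and 40.1 TPM (E15), 22.9 and 37.3 TPM (P3) and 8.73, 3.52 and 1.27 TPM (adult) (log2 difference -3.37, SE 0.56, limma, Benjamini-Hochberg adjusted p = 0.00206). Kif18a, which damps chromosome movements, was at 46.01 and 21.95 TPM (E15), 18.8 and 37.1 TPM (P3) and 8.602, 3.04 and 3.35 TPM (adult) (log2 difference -2.57, SE 0.50, limma, Benjamini-Hochberg adjusted p = 0.00454, 0.0515 without E15 replicate 1). Kif18b, which shortens astral microtubules, was at 6.16 and 7.43 TPM (E15), 1.53 and 4.497 TPM (P3) and 0, 0.0682 and 0.0758 TPM (adult). Its adult mean was 0.706% of the E15 mean, the lowest share of the 64 mitotic genes (log2 difference -2.89, SE 0.41, limma, Benjamini-Hochberg adjusted p = 0.000974).

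Of the kinesins of cytokinesis, Kif23, the motor of centralspindlin, was at 95.02 and 80.04 TPM (E15), 32.1 and 53.1 TPM (P3) and 3.06, 10.5 and 4.16 TPM (adult), with the largest difference among the 13 (log2 difference -3.82, SE 0.44, limma, Benjamini-Hochberg adjusted p = 0.000354). Kif20a, which carries the passenger complex to the midzone, was at 71.6 and 41.3 TPM (E15), 20.8 and 42.7 TPM (P3) and 0.895, 9.92 and 5.86 TPM (adult) (log2 difference -3.41, SE 0.69, limma, Benjamini-Hochberg adjusted p = 0.00541, 0.0512 without E15 replicate 1). Kif20b, needed for abscission of cortical progenitors in the mouse, was at 32.4 and 24.01 TPM (E15), 15.7 and 21.9 TPM (P3) and 1.87, 4.14 and 2.303 TPM (adult) (log2 difference -2.98, SE 0.36, limma, Benjamini-Hochberg adjusted p = 0.0004105). Kif14, which recruits citron kinase, was at 7.45 and 7.96 TPM (E15), 4.62 and 6.32 TPM (P3) and 1.01, 1.14 and 0.5601 TPM (adult) (log2 difference -2.21, SE 0.35, limma, Benjamini-Hochberg adjusted p = 0.00156). None of the 13 was called from E15 to P3, where 1.08% of all rows were called lower. From P3 to the adult 10 fell, where 13.8% of all rows were called lower, the exceptions being Kif22, Kifc1 and Kifc5b. Without P3 replicate 3 the calls from P3 to the adult of Kif14, Kif15, Kif18a, Kif18b, Kif20a, Kif23, Kif2c and Kif4 were lost (limma, Benjamini-Hochberg adjusted p between 0.0538 and 0.229), that of Kif20a also without P3 replicate 1 (0.0683).

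From E15 to the adult and from P3 to the adult, the 17 transport kinesins were called in both directions, at shares near those of all rows. Between E15 and the adult 6 fell, 2 rose and 9 did not pass, where 24.7% of all rows were called lower and 15.4% higher. The median difference was -0.36 against -0.30 for all rows. Without E15 replicate 1 these counts were 3 and 0, without E15 replicate 2 they were 4 and 1, and 1 rose without P3 replicate 1, P3 replicate 3, Adult replicate 2 or Adult replicate 3. With median-of-ratios scaling 5 fell and 4 rose, Kif1b (0.65) and Kifc2 (1.05) being added to the genes that rose and Kif5a being lost from those that fell (limma, Benjamini-Hochberg adjusted p = 0.0145, 0.0362 and 0.0705). From E15 to P3 none was called, with 6 lower and none higher at an unadjusted p under 0.05 (limma). Of all 15931 rows, 1794 were lower and 1963 higher at that unadjusted p. The share of lower transport kinesins was thus above that of all rows in this step. From P3 to the adult 2 fell and 1 rose, where 13.8% of all rows were called lower and 8.39% higher, and 1 was called without P3 replicate 3. The medians of these steps were -0.14 and -0.04, and both turned above 0, to 0.04 and 0.07, with median-of-ratios scaling. The latter was also above 0, at 0.02, with quantile normalization and, at 0.10, without Adult replicate 3.

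Kif21b and Kif5c, both known from neurons, had the largest falls. Kif21b, a motor of dendrites and axons that also pauses microtubule growth, was at 41.6 and 50.3 TPM (E15), 4.45 and 24.2 TPM (P3) and 4.17, 3.84 and 1.602 TPM (adult) (log2 difference -3.54, SE 0.61, limma, Benjamini-Hochberg adjusted p = 0.00261). Kif5c, a neuronal heavy chain of conventional kinesin, was at 42.6 and 50.3 TPM (E15), 5.73 and 25.4 TPM (P3) and 12.1, 2.79 and 4.89 TPM (adult) (log2 difference -2.83, SE 0.65, limma, Benjamini-Hochberg adjusted p = 0.00951, 0.0501 and 0.0649 without E15 replicate 1 and 2). P3 replicate 3 lay at 5.44 and 4.44 times the level of replicate 1, in the same direction as the sum of the immature neuron markers given above. The part of these markers in these levels was not tested. Without P3 replicate 3 Kif21b was called lower already from E15 to P3 (log2 -3.10, limma, Benjamini-Hochberg adjusted p = 0.0188).

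The other conventional kinesins fell less. Kif5b, the heavy chain of most cell types, was at 97.2 and 87.9 TPM (E15), 43.9 and 63.3 TPM (P3) and 46.96, 49.5 and 35.9 TPM (adult) (log2 difference -1.06, SE 0.23, limma, Benjamini-Hochberg adjusted p = 0.00726, 0.0634 without E15 replicate 1). Kif5a, a further neuronal heavy chain, was at 6.94 and 5.08 TPM (E15), 1.18 and 2.27 TPM (P3) and 2.06, 1.67 and 2.38 TPM (adult) (log2 difference -1.20, SE 0.36, limma, Benjamini-Hochberg adjusted p = 0.0298, and between 0.0605 and 0.190 without E15 replicate 1, E15 replicate 2 or Adult replicate 2). Its P3 and adult values overlapped, and the step from E15 to P3 did not pass (log2 difference -1.38, SE 0.40, limma, Benjamini-Hochberg adjusted p = 0.0832).

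Kif3a is the shared motor subunit of kinesin-2, which builds cilia and moves cargo in axons. It was at 95.99 and 89 TPM (E15), 82.8 and 85.04 TPM (P3) and 30.1, 33.8 and 36.04 TPM (adult), with E15 and P3 values close together and all adult values well below them (log2 difference -1.31, SE 0.17, limma, Benjamini-Hochberg adjusted p = 0.00181 from P3 to the adult). Its partners Kif3b and Kif3c did not pass in any comparison. Kif3b was at 7.83 and 5.49 TPM (E15), 5.79 and 6.26 TPM (P3) and 4.74, 6.27 and 2.79 TPM (adult), and Kif3c was at 22.5 and 22.3 TPM (E15), 23.1 and 19.7 TPM (P3) and 19.04, 16.9 and 15.8 TPM (adult). Kif21a, the paralogue of Kif21b, was at 77.8 and 76.9 TPM (E15), 39.6 and 56.2 TPM (P3) and 23.3, 28.6 and 22.7 TPM (adult), a stepwise order without overlap (log2 difference -1.60, SE 0.22, limma, Benjamini-Hochberg adjusted p = 0.000869). It also fell from P3 to the adult, but not once P3 replicate 3 was left out (limma, Benjamini-Hochberg adjusted p = 0.0225, and 0.179 without it).

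The most abundant transport kinesins, Kif1a and Kif1b, were not called in any comparison as deposited. Kif1a, the carrier of synaptic vesicle precursors, was at 91.8 and 108 TPM (E15), 61.2 and 93.8 TPM (P3) and 105, 96.4 and 120.1 TPM (adult). Kif1b, the carrier of mitochondria and synaptic vesicle precursors, was at 80.3 and 95.8 TPM (E15), 78.7 and 87.1 TPM (P3) and 108, 117 and 110.2 TPM (adult). For Kif1a, Kif1b and Kif3c the 95% intervals of all 3 pairwise log2 differences lay within -1 to 1, which held for 7.83% of all rows tested and for none of the mitotic genes (2 with median-of-ratios scaling, with a pseudocount of 5 or without filter). With median-of-ratios scaling Kif1b was called higher in the adult than at E15 (0.65) and at P3 (0.56), and with quantile normalization as well (0.51 and 0.57), with limma, Benjamini-Hochberg adjusted p between 0.0145 and 0.0403. For Kif1a the interval from E15 to the adult ran from -0.40 to 0.60. With median-of-ratios scaling 1 transport kinesin met this limit, as was also the case without E15 replicate 1, E15 replicate 2, P3 replicate 3 or Adult replicate 1, and with a pseudocount of 5 the number was 10.

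Kifc3 and Kif1c were called higher in the adult than at E15. Kifc2 was called higher there than at P3, but not than at E15. Kifc3, a minus-end motor known from epithelial junctions and apical transport, was at 0.409 and 1.901 TPM (E15), 6.28 and 2.03 TPM (P3) and 14, 12.1 and 5.56 TPM (adult), with adult values above both E15 values (log2 difference 2.43, SE 0.56, limma, Benjamini-Hochberg adjusted p = 0.00957, 0.0858 without E15 replicate 1). Kif1c, which works at the Golgi, was at 1.41 and 2.26 TPM (E15), 2.24 and 2.01 TPM (P3) and 3.97, 6.34 and 4.57 TPM (adult) (log2 difference 1.07, SE 0.36, limma, Benjamini-Hochberg adjusted p = 0.0433). Its call was lost without each library other than Adult replicate 1, with an adjusted p between 0.0623 and 0.245 (limma, Benjamini-Hochberg). Kifc2, a minus-end motor of neurons, was at 1.19 and 0.851 TPM (E15), 0.5497 and 0.357 TPM (P3) and 2.26, 2.97 and 2.9 TPM (adult) and rose from P3 to the adult (log2 difference 1.35, SE 0.33, limma, Benjamini-Hochberg adjusted p = 0.0228, 0.0766 and 0.150 without P3 replicate 1 and 3). Kifc2 reached 1 TPM only in E15 replicate 1 and in the adult libraries, so it met the filter through the stage where it was high. The low transport kinesins Kif13a and Kif16b, which carry endosomal cargo, Kif13b and Kif17, none above 6.82 TPM in any library, did not pass in any comparison. Kif17, a receptor carrier of dendrites, was at 0.193 and 0.263 TPM (E15), 0.913 and 0.153 TPM (P3) and 1.01, 1.87 and 0.973 TPM (adult).

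**Figure D3:**
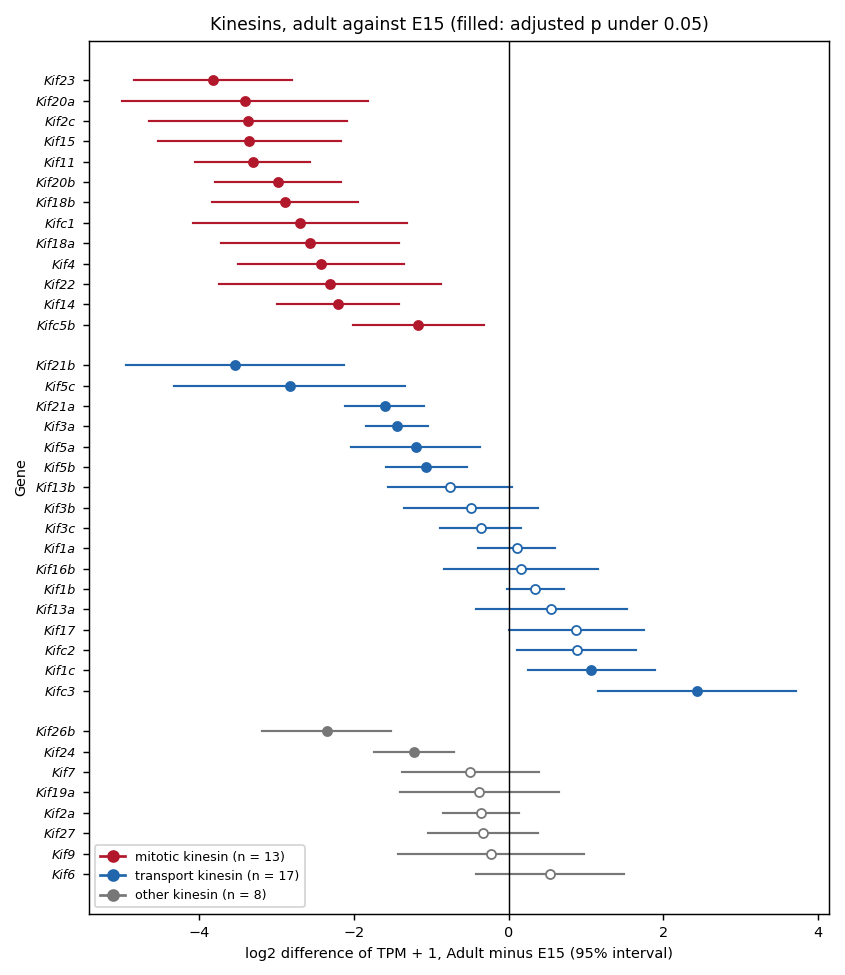
Difference in log2(TPM + 1) between the adult (n = 3) and E15 (n = 2) for the 38 kinesins tested, with 95% intervals from limma and filled points where the Benjamini-Hochberg adjusted p was under 0.05. All 13 mitotic kinesins lie below 0, while transport kinesins lie on both sides, with 6 called lower and 2 higher.

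Summed over each family, both groups of kinesins were lower in the adult than at E15, and the mitotic motors fell by more. The 13 mitotic kinesins summed to 576 and 441 TPM (E15), 215 and 398 TPM (P3) and 77.9, 58.8 and 57.3 TPM (adult). The 17 transport kinesins summed to 580.4 and 605 TPM (E15), 369 and 478 TPM (P3) and 389, 392 and 375 TPM (adult). The ratio of mitotic to transport kinesin TPM was 0.861 ± 0.187 (SD, n = 2) at E15, 0.706 ± 0.177 (SD, n = 2) at P3 and 0.168 ± 0.0283 (SD, n = 3) in the adult. Scaling each library by a single factor would not change this ratio. Quantile normalization could change it, and the ratio was not computed after that. The E15 ratios of 0.993 and 0.729 and the P3 ratios of 0.581 and 0.831 overlapped, and all lay above the adult ratios of 0.200, 0.150 and 0.153. No test was run on this ratio, because its members were chosen with results known.

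**Figure D4:**
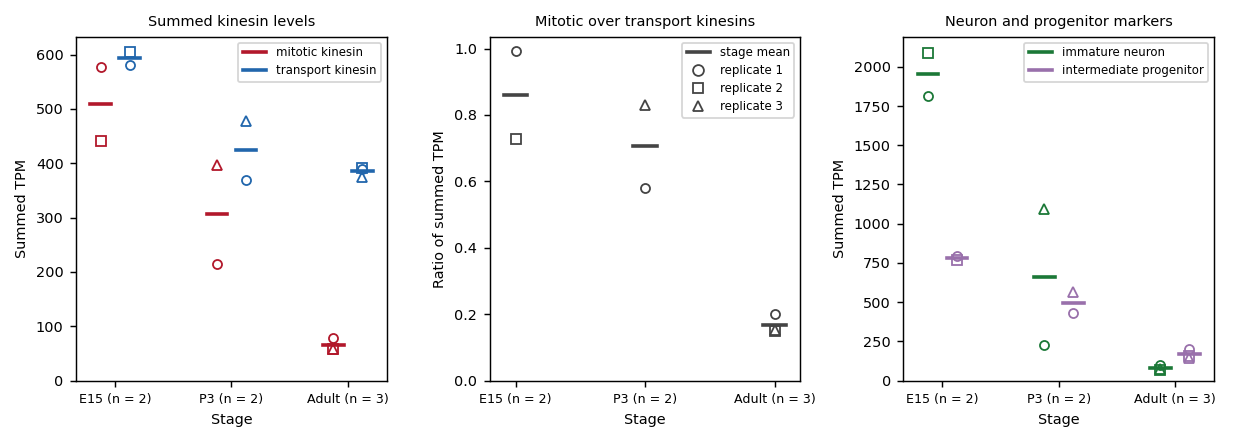
Summed TPM of mitotic and transport kinesins, their ratio, and summed TPM of immature neuron and intermediate progenitor markers, by stage, with 1 symbol per library (shape gives the replicate number) and a bar at the stage mean. The ratio lies between 0.150 and 0.200 in the adult and between 0.581 and 0.993 at E15 and P3, and P3 replicate 3 lies above replicate 1 in every series shown.

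The 8 other kinesins are motors of cilia or with more than 1 known task. Kif24, which takes apart centriolar microtubules and restrains cilia, was at 54.4 and 44 TPM (E15), 33.1 and 31.2 TPM (P3) and 21.5, 22.8 and 17.2 TPM (adult) (log2 difference -1.23, SE 0.22, limma, Benjamini-Hochberg adjusted p = 0.00335). Kif26b, known from kidney development, was at 5.59 and 5.797 TPM (E15), 1.49 and 2.12 TPM (P3) and 0.02305, 0.342 and 0.639 TPM (adult) (log2 difference -2.35, SE 0.36, limma, Benjamini-Hochberg adjusted p = 0.00144). Kif27, a motor of motile cilia, was highest at P3 and fell from P3 to the adult (log2 difference -1.17, SE 0.31, limma, Benjamini-Hochberg adjusted p = 0.0292), a call lost without E15 replicate 1, E15 replicate 2 or Adult replicate 2 (adjusted p = 0.0647, 0.0635 and 0.0505, limma, Benjamini-Hochberg). It passed the filter through the 2 P3 libraries alone, the stage where it was high. The difference of Kif27 from E15 to P3 did not pass (log2 difference 0.83, SE 0.34, limma, Benjamini-Hochberg adjusted p = 0.186). Most markers of ependymal cells, which bear motile cilia, were also highest at P3. Of the 5 tested, 5 rose from E15 to P3, where 5.56% of all rows were called higher. From P3 to the adult 4 fell (Ccdc153, Dynlrb2, Tekt1 and Tmem212) and Rarres2 rose, where 13.8% of all rows were called lower and 8.39% higher. Dynlrb2 was at 3.33 and 7.35 TPM (E15), 236 and 128 TPM (P3) and 16.2, 23.3 and 18.4 TPM (adult). All 6 markers summed to 13.5 and 21.7 TPM (E15), 450.2 and 309 TPM (P3) and 242, 212 and 285 TPM (adult), most of the adult sum being Rarres2, and their part in Kif27 was not tested. Foxj1, the master factor of motile cilia, was at no more than 0.596 TPM in any library. Kif2a, a depolymerase of neurons and spindle poles, was at 29.1 and 36.01 TPM (E15), 37.3 and 36.4 TPM (P3) and 23.2, 28.1 and 24.1 TPM (adult) and did not pass. Kif7, of the ciliary tip in Hedgehog signalling, Kif9 and Kif6, linked to motile cilia, and Kif19a, which limits cilium length, did not pass either, none being above 5.58 TPM.

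The 4 genes that share only the name pattern did not move together. Cenpj, a centriole protein, was at 15.2 and 16.2 TPM (E15), 3.996 and 10.6 TPM (P3) and 0.983, 3.47 and 0.51 TPM (adult) and fell between E15 and the adult (log2 difference -2.82, SE 0.55, limma, Benjamini-Hochberg adjusted p = 0.00443). Kif1bp, a protein that binds kinesins and is no motor itself, was at 14.7 and 21.1 TPM (E15), 32.7 and 24 TPM (P3) and 45.6, 49.3 and 48.6 TPM (adult) and rose (log2 difference 1.39, SE 0.24, limma, Benjamini-Hochberg adjusted p = 0.00269). Aurkaip1, which interacts with Aurora A and is part of the mitochondrial ribosome, was at 165 and 141 TPM (E15), 181 and 172 TPM (P3) and 240.4, 221 and 243 TPM (adult) and rose (log2 difference 0.62, SE 0.14, limma, Benjamini-Hochberg adjusted p = 0.00949, 0.10 without E15 replicate 2). Cenpv was at 34.7 and 36.7 TPM (E15), 33.3 and 30.3 TPM (P3) and 31.2, 17.1 and 39.4 TPM (adult) and did not pass.

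Genes of the same processes outside the named families were counted from lists of known members. Of 25 S phase genes, 21 fell and none rose between E15 and the adult, with a median of -1.98, beside 24.7% of all rows called lower. Mcm5 and Fen1 were among them (log2 differences -3.55 and -2.87, SE 0.63 and 0.26, limma, Benjamini-Hochberg adjusted p = 0.00278 and 0.0001203). Of 9 kinesin light chains and adaptors tested, 2 fell between E15 and the adult and none rose, Klc4 (-2.03) and the mitochondrial adaptor Trak2 (-1.66), with a median of -0.50, and from P3 to the adult 1 rose, Kidins220 (1.17), and none fell. These counts lay near the background of 24.7% of all rows called lower in the first comparison and 8.39% called higher in the second. Of 20 genes of cytoplasmic dynein and dynactin, the motor that runs opposite to most kinesins, 8 fell and 1, Dynlt3 (1.38), rose between E15 and the adult, beside 24.7% and 15.4% of all rows. The heavy chain Dync1h1 was at 74 and 69.1 TPM (E15), 36.3 and 56.2 TPM (P3) and 24.1, 19.9 and 20.8 TPM (adult) (log2 difference -1.69, SE 0.24, limma, Benjamini-Hochberg adjusted p = 0.000927). The median of this list was -0.59.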

How the data were processed

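RNA was sequenced from HopX-positive cells sorted at E15, P3 and in the adult. The values are TPM that the authors computed and deposited in 1 table of 24978 rows. The submitters' processing notes name bcl2fastq, Bowtie and the mouse build mm9, with no versions. The quantifier, the annotation, read numbers and strand were not given in the sources used here, so overlapping and near-identical genes are uncertain. Libraries summed to between 998450 and 999193 TPM. RNA was extracted with RNeasy kits and checked on a Bioanalyser, per the labels' protocols.

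The 15931 rows that reached 1 TPM in 2 or more libraries were fitted as log2(TPM + 1) in 1 model of stage over all 7 libraries with limma 3.58.1 in R 4.3.3 (trend, 4 residual and 4.27 prior degrees of freedom). P-values were adjusted over all rows by the Benjamini-Hochberg method and called under 0.05, and fold changes on this scale are understated for low genes. Nothing was tested below the filter, and a level was called shared when all 3 intervals of 95% lay within a log2 difference of 1. The procedure was tested on simulated data in which only adult levels were changed, and only for genes that were not low. It was thus not tested for low genes, for the step from E15 to P3 or for the comparison of steps. Kif11 and Nek2 are each listed on 2 rows with the same values and were counted 1 time.

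Members and lists were chosen with earlier results of these data known. Up to 4 genes per role with the largest called difference between E15 and the adult were named, with all kinesins and every member called higher or with a called step above 0. Kif1bp, Kif28 and Kifc5c-ps were given their roles after their names were seen. Alternatives were the pseudocount (0.1 or 5 TPM), no filter or a stricter one (mean of 5 TPM or more), quantile normalization or scaling by the median of ratios, other variance settings, the replicate number as a block, the compared stages alone, summed rows and each library left out. Leaving libraries out of the kinesin ratio was chosen after seeing the data.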

Additional observations from a re-analysis of the deposited data

How the results depend on the processing

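Of the alternative values for 372 differences of single members, 6157 kept their direction and side of the threshold, 191 lost a call, 49 gained one and 106 changed sign without being called; none reversed a call. The most calls were lost without P3 replicate 3 (40), without filter (23) and without E15 replicate 1 (23) or 2 (20), and for lost calls other than those on fewer samples the cause was not tested. Leaving out 1 library at a time, the mitotic genes that fell from E15 to the adult ranged from 48 to 59, from P3 to the adult from 22 to 55 and from E15 to P3 from 0 to 1, and those with a step difference below 0 from 0 to 7. Transport kinesins called from E15 to P3 ranged from 0 to 1 and from P3 to the adult from 1 to 3. From E15 to the adult, those higher ranged from 0 to 2 and those lower from 3 to 6, and those at a shared level ranged from 1 to 3 (mitotic 0 to 0). The kinesin ratio ranged from 0.729 to 0.993 at E15, from 0.581 to 0.831 at P3 and from 0.151 to 0.177 in the adult. The mitotic count from E15 to P3 was 1 with a pseudocount of 5, a stricter filter or quantile normalization. The step count of 5 became 3 with a pseudocount of 0.1 or median-of-ratios scaling, 1 without filter, 2 without the trend and 13 with the stricter filter, which tests fewer rows. Transport kinesins higher in the adult than at E15 numbered 4 with median-of-ratios scaling or quantile normalization, and 1 without filter, with the stricter filter, which left 10 of them, or with the 2 stages alone. Mitotic genes at a shared level numbered 2 with a pseudocount of 5, without filter or with median-of-ratios scaling, and transport kinesins 10 with a pseudocount of 5 and 1 with median-of-ratios scaling. Whether replicate numbers pair samples is not stated in the labels. The correlations of deviations from the stage means, taken over all rows tested, ran from -0.0232 to 0.0207 over 5 pairs. They cannot exclude pairing, because a link confined to few genes would hardly move them. With the replicate block, the mitotic counts were 60 (E15 to adult) and 50 (P3 to adult), the step count 0, transport kinesins called from P3 to the adult 1, and those higher than at E15 1. Over all rows, those lower from E15 to P3 numbered 172, and 98 with a pseudocount of 0.1, 108 with median-of-ratios scaling, 60 with the block and 52 with the 2 stages alone. Those higher numbered 885, and 556 with the block and 387 with the 2 stages alone. Depth is unknown, so what it limits could not be measured.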

Other observations

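Of 40 other mitotic genes tested, outside the named families, 33 fell and 1 rose between E15 and the adult (limma, Benjamini-Hochberg adjusted p under 0.05). Of all rows, 24.7% were called lower and 15.4% higher. The median log2 difference of the 40 was -2.17, against -0.30 for all rows. Cks2, a small subunit of Cdk complexes, was at 762 and 605 TPM (E15), 372 and 509 TPM (P3) and 38.6, 49.2 and 40.5 TPM (adult) (log2 difference -3.96, SE 0.20, limma, Benjamini-Hochberg adjusted p = 6.14e-06). Cdkn3, a phosphatase that acts on Cdk1 and Cdk2, was at 68.9 and 44.98 TPM (E15), 75.1 and 69.9 TPM (P3) and 0, 6.81 and 5.12 TPM (adult) and was listed at 0 in Adult replicate 1 (log2 difference -3.97, SE 0.77, limma, Benjamini-Hochberg adjusted p = 0.00446).

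Pttg1, which encodes securin, the inhibitor of separase, was the exception. It was at 87.4 and 78.7 TPM (E15), 313 and 213 TPM (P3) and 132, 185 and 222 TPM (adult), so every P3 and adult library lay above both E15 libraries. It rose from E15 to P3 (log2 difference 1.63, SE 0.27, limma, Benjamini-Hochberg adjusted p = 0.0116), the only call of the 40 in that step, and it was higher in the adult than at E15 (log2 difference 1.07, SE 0.25, limma, Benjamini-Hochberg adjusted p = 0.0103). Zwint, an outer kinetochore protein that is also known from neurons, was at 321 and 265 TPM (E15), 405 and 362 TPM (P3) and 296, 270.3 and 353 TPM (adult) and did not pass in any of the 3 comparisons.

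Cohesin holds sister chromatids together and also shapes chromatin in resting cells. Rad21 was at 62.9 and 66.1 TPM (E15), 58.1 and 66.6 TPM (P3) and 29.96, 28.01 and 26.7 TPM (adult) and fell (log2 difference -1.17, SE 0.18, limma, Benjamini-Hochberg adjusted p = 0.001596), as did Smc1a (log2 difference -1.04, SE 0.32, limma, Benjamini-Hochberg adjusted p = 0.0317). Smc3, Stag1 and Stag2 did not pass between E15 and the adult (log2 differences -0.48, 0.06 and -0.43). Pttg1, Zwint and the cohesins were singled out after their values were seen.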
